A study of Mus musculus with 18 samples.

Results

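The genes described here are the cytochrome P450 genes of families 1 to 4, taken as every gene of the deposited table whose symbol is Cyp, a family number from 1 to 4, a subfamily letter and a gene number. The rule uses names only and no measured value, and it gives 75 of the 54532 genes in the table. All are annotated as protein-coding, and they lie largely in tandem arrays: 15 each on chromosomes 4, 7 and 19, 9 on chromosome 17, 8 each on chromosomes 5 and 15, 2 each on chromosomes 8 and 9, and 1 on chromosome 3 (GRCm38, GENCODE M21). Their levels come from polyadenylated RNA of mouse liver cells. The mice had either bile duct ligation (BDL), which stops bile from draining, or sham surgery (Sham). Hepatocytes isolated from these livers are labelled MPH, the biliary epithelium BECs, and the macrophage preparation Kupffer, after the macrophages that reside in the sinusoids. Each of the 6 groups (MPH Sham, MPH BDL, BECs Sham, BECs BDL, Kupffer Sham and Kupffer BDL) held 3 libraries. The labels give no strain, genotype, age, drug or time after ligation, and do not say whether libraries came from separate mice. The p-values therefore measure only the spread between these libraries, part of which may be technical. Replicate numbers below are names only.

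Cytochrome P450 enzymes are haem proteins of the endoplasmic reticulum that insert 1 atom of oxygen into their substrates, with electrons handed over by the reductase encoded by Por. Families 1 to 3 hold the enzymes that oxidise drugs and other foreign compounds, steroids and bile acids, and family 4 holds mainly hydroxylases of fatty acids and eicosanoids. Hepatocytes are the main site of most of them, often in a gradient with the highest levels around the central vein, and several are switched on by receptors that sense ligands: the aryl hydrocarbon receptor (Ahr) for Cyp1, CAR (Nr1i3) for Cyp2b, PXR (Nr1i2) for Cyp3a and PPAR alpha (Ppara) for Cyp4a.

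All values are FPKM, which are per length of transcript, so levels of different genes can be set side by side. Differences are on the log2(FPKM + 1) scale, BDL minus Sham, and a gene was called at an adjusted p under 0.05 (limma, Benjamini-Hochberg over all genes tested). The reads in genes that could be recovered ran from 15451737 to 20578962 a library. Each preparation carried the markers of its label and some of the others. Alb, the gene of serum albumin, read 24260 to 80210 in MPH, 69.0 to 2744 in BECs and 342 to 2112 in Kupffer. Krt19, a keratin of bile duct cells, read 291 to 588 in BECs and at most 15.4 elsewhere. Clec4f, a Kupffer cell lectin, read 295 to 1812 in Kupffer, 218 to 1098 in MPH and at most 18.3 in BECs. Reads of Y-linked genes were present in 9 of the 18 libraries and near 0 in the other 9, and every group held libraries of both kinds. No group therefore came from a single mouse. In bulk libraries, fewer cells of a type and less RNA per cell cannot be told apart.

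In Sham livers the P450 genes were mainly hepatocyte transcripts. Summed over the 75 genes they made up 7097 ± 3058 FPKM in MPH Sham, 706 ± 282 in BECs Sham and 299 ± 27.4 in Kupffer Sham (SD, n = 3). The scale of the FPKM differed between libraries. As a percent of the summed FPKM of all genes, the range was 0.651 to 1.34 in MPH Sham, 0.160 to 0.363 in BECs Sham and 0.0998 to 0.116 in Kupffer Sham. Of the 75 genes, 16 reached 1 FPKM in no library and 59 did in some. A Sham mean of at least 1 FPKM in some cell type was found for 57, and it was highest in MPH for 46, in BECs for 7 and in Kupffer for 4. In MPH Sham, 22 genes had a mean over 100 FPKM.

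**Figure D1:**
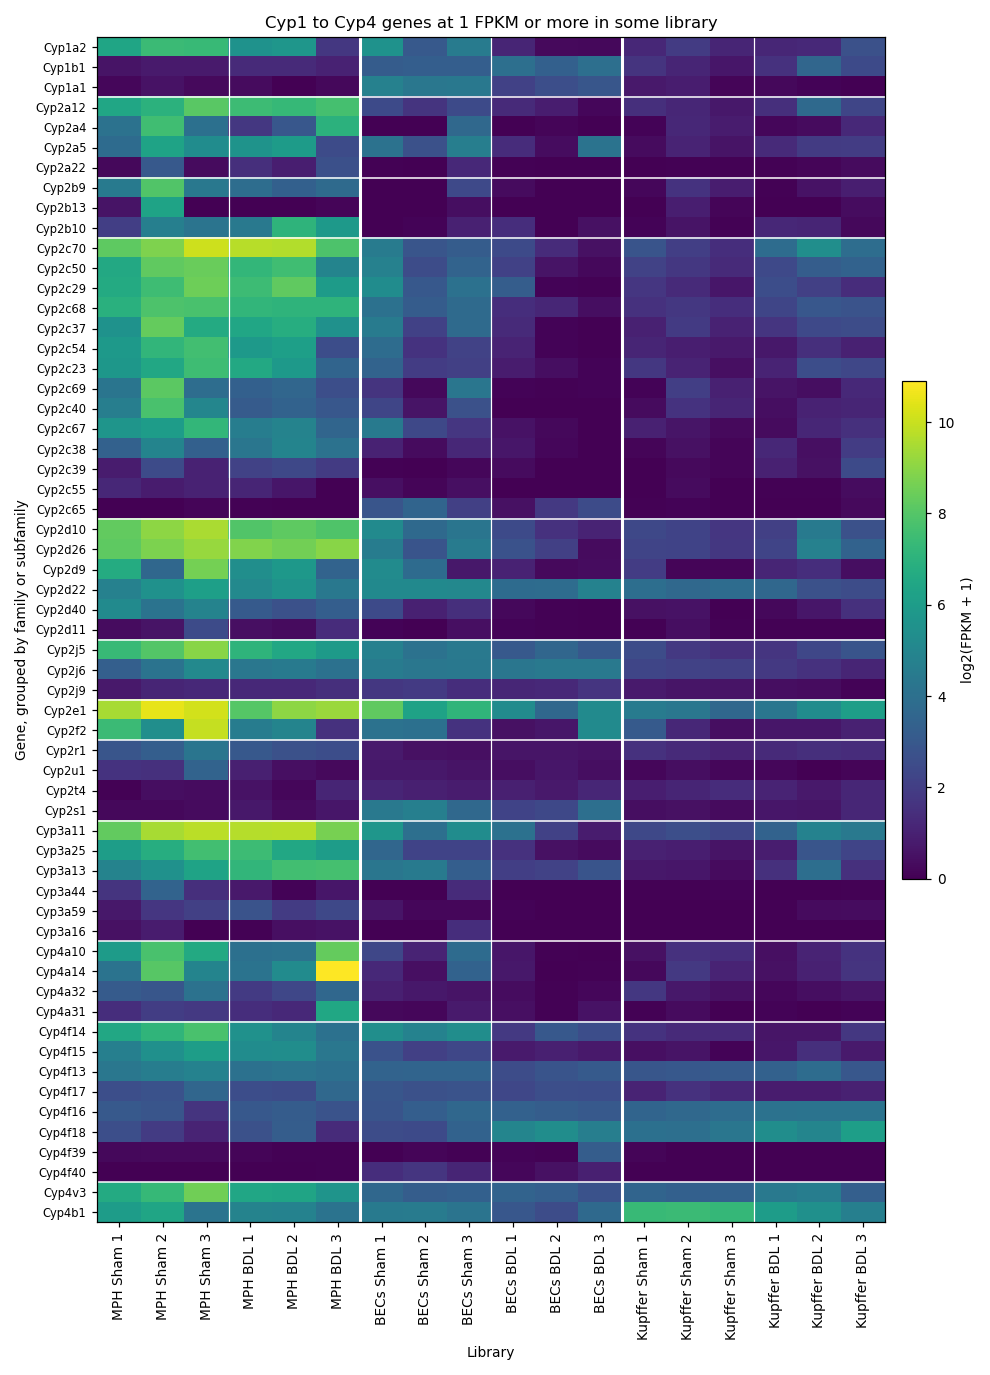
Each cell of the map is log2(FPKM + 1) of 1 gene (rows, grouped by family or subfamily) in 1 library (columns), for the 59 genes at 1 FPKM or more in some library. Most rows are bright in the 6 MPH columns, Cyp1a1, Cyp2s1 and Cyp2c65 are brightest in BECs Sham, and Cyp4b1 is brightest in Kupffer Sham.

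The leading gene of each of 12 groups of related subfamilies in MPH Sham shows the breadth of the hepatocyte programme. Cyp2e1, Cyp2f2 and Cyp2g1 form 1 group, so Cyp2f2, at 397 ± 506.5 FPKM, is not in this order. Cyp2e1, which oxidises ethanol and other small molecules, was highest at 1092 ± 369 FPKM. Cyp3a11, a broad drug and steroid oxidase, stood at 634 ± 292, and Cyp2c70, which makes the muricholic acids typical of mouse bile, at 607 ± 422. Cyp2d10 stood at 521 ± 213 and Cyp2j5, an epoxygenase of arachidonic acid, at 306 ± 176. Below these 5 came Cyp4v3, a fatty acid hydroxylase, at 208 ± 142, Cyp2a12 at a mean of 165, Cyp4f14 at 149.8 ± 63.6, and Cyp1a2, which oxidises caffeine and aromatic amines, at 139 ± 47.9. The PPAR alpha target Cyp4a10 stood at 125 ± 81.3, Cyp2b9 at 94.3 ± 128 and the vitamin D hydroxylase Cyp2r1 at 11.0 ± 6.24. The SDs (n = 3) are large beside the gaps between neighbours in this order. The 3 Sham libraries also differed in level: the sum over the 75 genes was 3734, 7845 and 9712 FPKM in MPH Sham 1, 2 and 3. As a percent of the summed FPKM of all genes it was 0.651, 1.34 and 1.16, so which library was highest depends on the scale.

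The 120 bases before the transcription start are shown for 6 genes whose values carry the comparisons below: Cyp1a1 and Cyp1a2, which lie head to head on chromosome 9 and were read in different cells, Cyp3a11 and Cyp3a13, a pair of subfamily 3a with unlike values after ligation, and the hepatocyte genes Cyp2c70 and Cyp2e1. Sequences are from RefSeq, build GRCm38.p6, read 5′ to 3′ on the strand of the gene, and end at the base before RefSeq's start. Capitals mark TATAAA on the gene strand (the TATA box), and on either strand GCGTG (the core bound by the aryl hydrocarbon receptor), CAAAGT (part of the site of HNF4), GTTAAT (part of the site of HNF1), CCAAT and TTGCGCAA (a C/EBP site); a match on the other strand appears as its reverse complement.
Cyp1a1, chr9:57697493-57697612, plus strand: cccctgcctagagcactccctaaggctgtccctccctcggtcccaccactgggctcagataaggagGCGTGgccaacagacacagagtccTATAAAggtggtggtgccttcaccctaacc
Cyp1a2, chr9:57683656-57683775, minus strand: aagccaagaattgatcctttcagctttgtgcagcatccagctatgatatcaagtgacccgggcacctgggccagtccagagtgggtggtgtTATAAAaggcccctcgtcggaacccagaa
Cyp3a11, chr5:145879855-145879974, minus strand: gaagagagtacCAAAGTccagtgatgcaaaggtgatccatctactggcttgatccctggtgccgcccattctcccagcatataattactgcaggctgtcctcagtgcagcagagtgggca
Cyp3a13, chr5:137921620-137921739, minus strand: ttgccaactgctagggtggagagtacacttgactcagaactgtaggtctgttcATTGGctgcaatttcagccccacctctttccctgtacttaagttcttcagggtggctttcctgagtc
Cyp2c70, chr19:40187287-40187406, minus strand: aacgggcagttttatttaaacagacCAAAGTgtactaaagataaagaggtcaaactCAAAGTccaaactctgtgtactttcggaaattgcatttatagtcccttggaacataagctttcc
Cyp2e1, chr7:140763699-140763818, plus strand: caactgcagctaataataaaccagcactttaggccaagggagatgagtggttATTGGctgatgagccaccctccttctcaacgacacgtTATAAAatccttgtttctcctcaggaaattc
TATAAA lay 30 to 25 bases before the start of Cyp1a1, 29 to 24 before that of Cyp1a2 and 31 to 26 before that of Cyp2e1. GCGTG lay 54 to 50 bases before the start of Cyp1a1 and was not among the letters of this window of Cyp1a2. CAAAGT lay 109 to 104 bases before the start of Cyp3a11, and at 95 to 90 and 64 to 59 before that of Cyp2c70. The CCAAT box on the other strand lay 67 to 63 bases before the start of Cyp3a13 and 68 to 64 before that of Cyp2e1.

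Promoters of 62 of the 75 genes were matched in the RefSeq table, and the same motifs were counted in the 250 bases before the start, beside all 27025 genes of that table. CAAAGT was present in 26 of 62 (41.94%) against 14.14% of all genes, and TATAAA in 17 (27.42%) against 8.94%. GTTAAT was present in 9 (14.52%) against 7.49%, and CCAAT in 25 (40.32%) against 37.49%. GCGTG was present in 12 (19.35%) against 30.85%, and TTGCGCAA in 0 of 62 against 0.19%. These shares describe letters, not bound sites, and genes of tandem arrays share sequence, so the 62 are not independent.

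Between cell types in Sham livers, most of the tested genes were higher in MPH. Of 51 tested, 36 were called higher and 7 lower in MPH than in BECs, where 58.3% of all genes were called (30% higher and 28.3% lower). Against Kupffer, 41 were called higher and 4 lower, with 56.8% of all genes called (28.7% higher and 28.1% lower). BECs exceeded Kupffer for 27 genes and were lower for 2, with 43.9% of all genes called (23.9% higher and 20% lower). The split against BECs moved with the scaling of the libraries. With reads in genes as the scale it was 33 higher and 10 lower, with a common sum of FPKM 32 and 12, and the median of all genes shifted by -0.55 and -0.83. Against Kupffer these scalings shifted the median of all genes by -0.60 and -0.85, and 41 and 40 genes were called higher, with 5 lower.

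The genes that defined the hepatocyte side included Cyp2e1, with a log2 difference of 2.80 (SE 0.49, adjusted p = 9.73e-04) from BECs and 5.87 (SE 0.49, adjusted p = 1.81e-05) from Kupffer. For Cyp3a11 the differences were 4.18 (SE 0.49, adjusted p = 9.18e-05) and 6.75 (SE 0.49, adjusted p = 9.74e-06), and for Cyp2c70 5.49 (SE 0.59, adjusted p = 5.22e-05) and 6.94 (SE 0.59, adjusted p = 1.96e-05). All 4 tested genes of each of the subfamilies 3a and 4a were called higher in MPH, both against BECs and against Kupffer. Of the 12 tested genes of subfamily 2c, 11 were higher in MPH than in BECs and the other, Cyp2c65, was lower.

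A mean of at least 1 FPKM in BECs or Kupffer Sham, and at least 2 times the MPH Sham mean, was found for 9 P450 genes: Cyp1a1, Cyp1b1, Cyp2c65, Cyp2s1, Cyp2t4, Cyp4b1, Cyp4f16, Cyp4f18 and Cyp4f40. Cyp1a1, an enzyme that oxidises polycyclic aromatic compounds, was highest in BECs (chr9:57687928-57703824, GRCm38). It read 26.3, 18.7 and 19.7 FPKM in BECs Sham, 0.135, 0.426 and 0.208 in MPH Sham and 0.677, 0.809 and 0.124 in Kupffer Sham. Its neighbour Cyp1a2 (chr9:57676937-57683703) had the opposite order, with 84.0, 173 and 159 in MPH Sham, 45.8, 7.23 and 21.9 in BECs Sham and 1.33, 2.73 and 1.18 in Kupffer Sham. For Cyp1a1 the difference MPH minus BECs was -4.16 (SE 0.21, adjusted p = 9.75e-07). Among the Sham libraries Cyp1a1 passed the filter of 1 FPKM through BECs alone. That its BECs libraries lay above both other cell types follows from the filter.

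Cyp2s1, an extrahepatic P450 of epithelia, had the same shape, with 20.5, 25.0 and 11.8 in BECs Sham and 0.168, 0.160 and 0.234 in MPH Sham (MPH minus BECs -4.02, SE 0.23, adjusted p = 1.94e-06). Cyp2c65 read 6.40, 10.3 and 3.15 in BECs Sham and 0, 0 and 0.120 in MPH Sham (MPH minus BECs -2.76, SE 0.30, adjusted p = 6.07e-05). Both genes passed the filter through BECs Sham alone, so that their BECs libraries all lay above the MPH libraries follows from the filter. The levels in BECs Sham rested on 2008, 2734 and 1113 recovered reads for Cyp2s1 and on 245, 439 and 116 for Cyp2c65. Cyp1b1, which hydroxylates oestrogens, read 7.98, 8.67 and 8.65 in BECs Sham against 0.484, 0.710 and 0.745 in MPH Sham (MPH minus BECs -2.52, SE 0.22, adjusted p = 1.57e-05). Cyp4f40 read 1.68, 2.21 and 1.18 in BECs Sham and 0 in all 3 MPH Sham libraries. Cyp4f40 too passed the filter through BECs Sham alone. It was called lower in MPH, as were Cyp2j9 and Cyp2t4, which completes the 7.

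On the Kupffer side, Cyp4b1, a hydroxylase of fatty acids, was the most abundant P450 gene (chr4:115624725-115647723, GRCm38). It read 163, 173 and 154 FPKM in Kupffer Sham, 64.8, 83.2 and 17.2 in MPH Sham and 21.7, 22.0 and 17.5 in BECs Sham, and the difference MPH minus Kupffer was -1.82 (SE 0.48, adjusted p = 0.0109). The 3 Kupffer libraries lay close together and above all others, and without MPH Sham 3 the difference was -1.14. The 11 endothelial markers, none of them at 0, summed to 1770, 2141 and 2138 FPKM in these Kupffer libraries, 193, 225 and 259 in BECs Sham and 1025, 1058 and 232 in MPH Sham, where MPH Sham 3 was lowest for both the markers and Cyp4b1. Their part in the level of Cyp4b1 was not tested. Cyp4f18, a leukotriene hydroxylase of myeloid cells, read 15.3, 14.9 and 18.6 in Kupffer Sham and 5.19, 2.69 and 1.12 in MPH Sham (MPH minus Kupffer -2.24, SE 0.39, adjusted p = 0.00120). Cyp4f16 had a mean of 12.0 in Kupffer Sham against 5.21 in MPH Sham (MPH minus Kupffer -1.17, SE 0.36, adjusted p = 0.0205), and Cyp2t4 1.21 against 0.221.

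**Figure D2:**
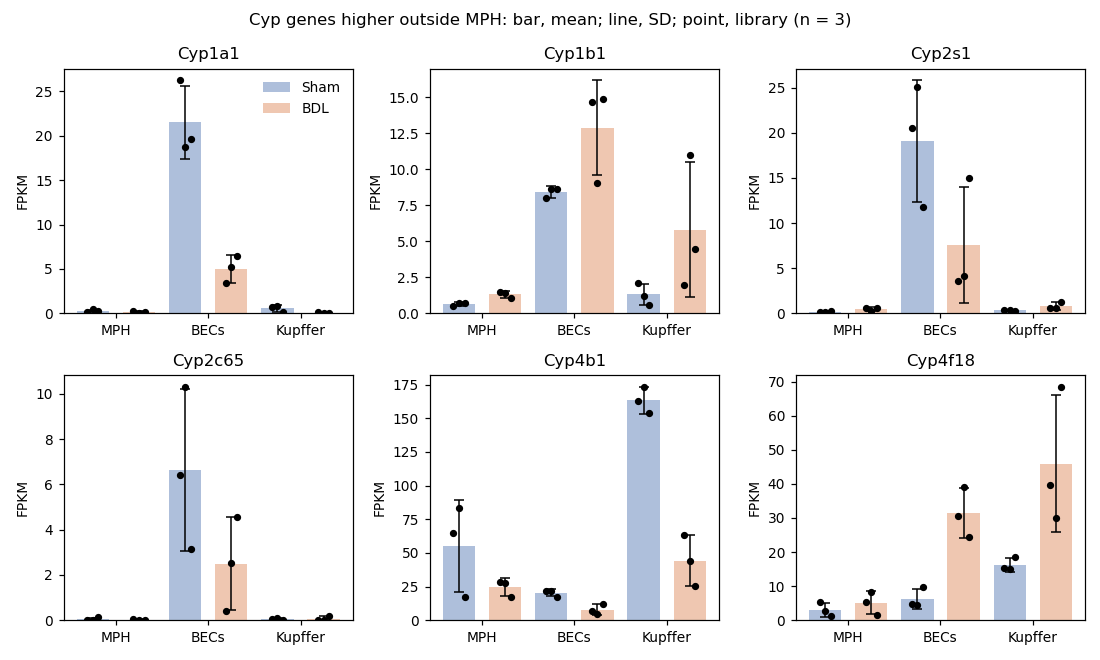
FPKM of 6 P450 genes that were higher outside MPH, with bars for the mean, lines for the SD (n = 3) and points for single libraries, Sham in blue and BDL in orange. Cyp1a1, Cyp2s1 and Cyp2c65 stand above 3 FPKM in all BECs Sham libraries and below 1 in all MPH libraries, Cyp4b1 stands above 150 in all Kupffer Sham libraries, and Cyp4f18 is higher after ligation in BECs.

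The remaining P450 reads in BECs and Kupffer can be set beside hepatocyte markers of the same libraries. For the 39 genes with an MPH Sham mean of at least 10 FPKM, the median level in BECs Sham was 5.59% of that in MPH Sham, and in Kupffer Sham 1.07%. The 15 matched hepatocyte markers, none of them at 0, had medians of 3.61% and 1.02%. Some P450 genes stood far from the markers in BECs Sham: Cyp2j6 was at 102% of its MPH level, Cyp2d22 at 72.7%, Cyp4f13 at 43.8%, Cyp3a13 at 31.9% and Cyp4f14 at 24.3%, while 14 of the 15 markers lay between 1.89% and 4.47% and Ambp was at 28.2%. The share of the low P450 levels that hepatocyte RNA makes up was not tested.

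In hepatocytes after ligation, several of the most abundant P450 genes read lower while Cyp3a13 read higher, but no P450 gene was called. Of the 50 genes tested in MPH, 0 passed, against 1.57% of all genes, and 16 (32.0%) had an unadjusted p under 0.05, against 22.6% of all genes. In 15 genes all 3 BDL libraries lay below all 3 Sham libraries (30%, against 18.4% of all genes), and in 2 they lay above (4.0%, against 11.8%). Of these, Cyp3a44 and Cyp2u1 passed the filter through Sham libraries alone and Cyp1b1 through BDL libraries alone. The places of these genes in the counts follow from the filter. The median difference was -0.47, against -0.06 over all genes. Scaled to a common sum the median of all genes shifted by 0.14 and that of the P450 genes was -0.36. Fitted with all 18 libraries in 1 model, 11 were called, 9 of them lower (Cyp4f14, Cyp2d40, Cyp2u1, Cyp2c40, Cyp3a44, Cyp2j5, Cyp2c67, Cyp4v3 and Cyp1a2) and 2 higher (Cyp3a13 and Cyp2b10). The share of all genes called in that fit is not given here, so the 11 have no background beside them.

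In family 1, Cyp1a2 read lower in MPH after ligation, and Cyp1b1 stood near the filter. Cyp1a2 read 84.0, 173 and 159 FPKM in Sham and 45.7, 51.7 and 2.41 in BDL, a difference of -2.71 (SE 1.03, adjusted p = 0.187). All BDL libraries lay below all Sham libraries, and MPH BDL 3 was far below the other two. Cyp1b1 was low throughout, with 0.484, 0.710 and 0.745 in Sham and 1.45, 1.43 and 1.05 in BDL (0.49, SE 0.18, adjusted p = 0.181). It is 1 of the 2 genes whose BDL libraries all lay above Sham. It passed the filter of 1 FPKM through its BDL libraries alone, so this order follows from the filter and is no support for a rise. The BECs libraries, where Cyp1b1 was higher, held biliary markers and also stellate and fibroblast markers (683, 912 and 1137 FPKM in BECs Sham). Biliary markers summed to 100.3, 166 and 167 in MPH Sham and 327, 322 and 363 in MPH BDL. Of a list of 14, 1 of 8 tested was called higher. Stellate and fibroblast markers summed to 155, 355 and 119 in MPH Sham and 476, 454 and 321 in MPH BDL. The part of either set in the level of Cyp1b1 was not tested. Cyp1a1 read at most 0.426 FPKM in all 6 MPH libraries and was not tested there.

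The subfamily 3a genes, targets of PXR, gave unlike readings. Cyp3a13 read 28.0, 44.7 and 80.1 FPKM in Sham and 142, 195 and 203 in BDL, a difference of 1.91 (SE 0.40, adjusted p = 0.0700), and passed the threshold when libraries were scaled to a common sum (adjusted p = 0.0403) or to reads in genes (adjusted p = 0.0481). Every BDL library lay above every Sham library (chr5:137892932-137921619, GRCm38). Cyp3a11 read 309.9, 716 and 877 in Sham and 819.6, 848 and 401 in BDL (0.17, SE 0.50, adjusted p = 0.868), with groups that overlapped (chr5:145854426-145879964). Cyp3a44, a gene of female mouse liver, read 2.15, 10.2 and 1.77 in Sham and 0.690, 0.0822 and 0.570 in BDL (-1.69, SE 0.54, adjusted p = 0.137). Cyp3a44 passed the filter through its Sham libraries alone, so that its groups lay apart follows from the filter.

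Of the 13 tested genes of subfamily 2c, 3 had BDL libraries that all lay below Sham, a share near the 18.4% of all genes. Cyp2c67 read 50.4, 63.7 and 149 FPKM in Sham and 23.5, 28.2 and 10.7 in BDL (-1.97, SE 0.50, adjusted p = 0.0925). Cyp2c40 read 24.3, 216 and 30.7 in Sham and 7.70, 9.82 and 6.68 in BDL (-2.64, SE 0.78, adjusted p = 0.122), and Cyp2c69 17.8, 282 and 13.7 in Sham and 9.18, 11.1 and 5.05 in BDL (-2.23, SE 1.08, adjusted p = 0.274). The means of the latter pair in Sham rest on MPH Sham 2, and their reads are uncertain, since 57.1% of the 75-base windows of Cyp2c40 and 43.2% of those of Cyp2c69 occur unchanged in another gene. Of the 75 genes, 9 share over 20% of their windows, among them also Cyp2c67, Cyp2c68, Cyp2d10, Cyp2a4 and Cyp2a5, and 24 share none. The most abundant member of the subfamily, Cyp2c70, overlapped, with 293, 440.2 and 1087 in Sham and 856, 806 and 232 in BDL (0.06, SE 0.67, adjusted p = 0.968).

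Cyp2e1 and Cyp2f2, which mark opposite ends of the liver lobule, both read lower after ligation. Cyp2e1, central, read 705, 1441 and 1129 FPKM in Sham and 256, 534 and 612 in BDL (-1.26, SE 0.44, adjusted p = 0.165). Cyp2f2, periportal and active on naphthalene, read 174, 40.3 and 977 in Sham and 22.6, 28.8 and 1.93 in BDL (-3.91, SE 1.30, adjusted p = 0.150). The groups did not overlap for either gene, but the Sham values of Cyp2f2 ran from 40.3 to 977.

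In subfamily 2d, Cyp2d40 came closest to the threshold of all P450 genes in MPH. It read 35.8, 17.0 and 28.5 FPKM in Sham and 7.41, 5.54 and 8.67 in BDL (-1.73, SE 0.31, adjusted p = 0.0507). Cyp2d10 read 309, 522 and 734 in Sham and 246, 296 and 239 in BDL (-0.92, SE 0.36, adjusted p = 0.200), and 26.7% of its windows are shared, mostly with Cyp2d11. The groups were apart in both, whereas Cyp2d26, of similar abundance, had means of 434 and 445. Cyp2j5 read 160.3, 255 and 501 in Sham and 134, 92.6 and 59.5 in BDL (-1.59, SE 0.49, adjusted p = 0.131), and Cyp2u1 2.05, 1.86 and 9.96 in Sham and 0.957, 0.369 and 0.213 in BDL (-1.63, SE 0.53, adjusted p = 0.144). Cyp2u1 passed the filter through its Sham libraries alone, so that its groups lay apart follows from the filter. Cyp2r1, which hydroxylates vitamin D, overlapped, with means of 11.0 and 5.89.

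Subfamily 2b, which holds the CAR target Cyp2b10, gave a pair of opposite readings. Cyp2b10 read 3.03, 25.3 and 17.1 FPKM in Sham and 20.3, 135 and 57.7 in BDL (2.16, SE 0.88, adjusted p = 0.212), and the groups overlapped. Cyp2b9 read 21.8, 242 and 19.6 in Sham and 13.9, 9.03 and 12.7 in BDL (-1.93, SE 0.91, adjusted p = 0.265). Its BDL libraries all lay below Sham, but the Sham mean rests on MPH Sham 2, the MPH Sham library without Y-linked reads. Cyp2b9 is among the genes listed as female-biased below. In subfamily 2a, Cyp2a12 overlapped, with means of 165 and 179.5.

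In family 4, the fatty acid hydroxylases Cyp4f14 and Cyp4v3 read lower after ligation. Cyp4f14 read 91.2, 141 and 217 FPKM in Sham and 45.1, 29.6 and 15.6 in BDL (-2.31, SE 0.46, adjusted p = 0.0641), and Cyp4v3 99.2, 155 and 369 in Sham and 85.6, 80.9 and 48.7 in BDL (-1.35, SE 0.50, adjusted p = 0.183). The groups did not overlap for either, nor for Cyp4f13, the last of the 15, at 23.2 against 16.2. For 3 of the 4 tested genes of subfamily 4a, the PPAR alpha targets Cyp4a14 and Cyp4a10 and the related Cyp4a31, 1 library set the BDL mean. Cyp4a14 read 16.9, 267 and 29.2 in Sham and 16.8, 37.0 and 1909 in BDL, and Cyp4a31 1.68, 2.90 and 2.54 in Sham and 1.68, 1.41 and 90.1 in BDL. Cyp4a10 read 61.4, 217 and 98.0 in Sham and 15.4, 16.4 and 319 in BDL (-1.29, SE 1.17, adjusted p = 0.548). MPH BDL 3 was the highest of the 6 libraries for all 3 genes, while the other BDL libraries of Cyp4a10 lay below Sham. Without it the differences of Cyp4a14 and Cyp4a31 turned from 1.05 and 1.33 to -1.01 and -0.39. MPH Sham 2 was the highest Sham library for the same 3 genes, and these 2 libraries are the ones of MPH without Y-linked reads. The other PPAR alpha targets summed to 1137, 1023 and 3765 FPKM in MPH BDL 1, 2 and 3, and to 2586, 2921 and 3893 in Sham. The part of either in these levels was not tested. Cyp4a32 did not share the pattern: it read 7.88, 6.45 and 16.1 in Sham and 2.65, 3.99 and 11.4 in BDL (-0.78, SE 0.51, adjusted p = 0.412), highest in MPH Sham 3.

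**Figure D3:**
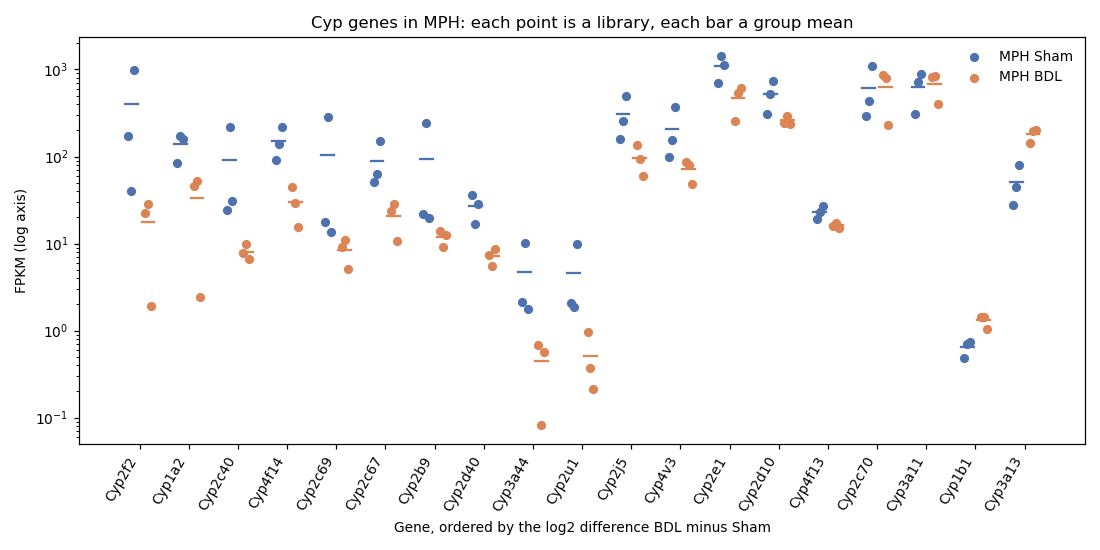
FPKM on a log axis of 19 P450 genes in the 6 MPH libraries (points, Sham in blue and BDL in orange, with bars for the group means): the 17 whose groups do not overlap, Cyp3a11 and Cyp2c70. Cyp1a2, Cyp4f14 and Cyp2e1 are among the 15 whose BDL points lie below Sham, Cyp3a13 and Cyp1b1 are the 2 whose BDL points lie above, and the points of Cyp3a11 and Cyp2c70 mix.

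The genes around the P450 enzymes in MPH were read from lists of companion genes. Of 15 genes for redox partners and haem synthesis limma called 0, with 10 at an unadjusted p under 0.05, and 3 read higher: Por, the P450 reductase, with 72.4, 62.4 and 56.8 FPKM in Sham and 123, 315 and 435 in BDL (1.99, SE 0.47, adjusted p = 0.0810), Alas1, the first enzyme of haem synthesis (1.42, SE 0.50, adjusted p = 0.165), and Hmox1, which breaks haem down (1.31, SE 0.55, adjusted p = 0.222). The Por groups did not overlap. The other 12 genes of the list read lower, and the list median was -0.63, against -0.06 over all genes. Of 19 tested P450 transcription factors limma called 0, with 9 at an unadjusted p under 0.05. Ahr read 4.33, 7.68 and 4.81 in Sham and 10.5, 13.5 and 19.1 in BDL (1.21, SE 0.29, adjusted p = 0.0810), and CAR (Nr1i3) 1.11, 1.36 and 1.68 in Sham and 3.47, 3.27 and 4.26 in BDL (0.97, SE 0.19, adjusted p = 0.0605). Both sets of BDL libraries lay above Sham. Ppara (-1.04, SE 0.32, adjusted p = 0.130) and Cebpa (-0.996, SE 0.34, adjusted p = 0.154) read lower without overlap, and PXR (Nr1i2, -0.30, SE 0.33, adjusted p = 0.627) and Hnf4a (0.20, SE 0.35, adjusted p = 0.768) overlapped.

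Of the 12 targets of PPAR alpha outside the P450 genes 1 was called, Acaa1b, a peroxisomal thiolase, which fell from 709 to 62.0 FPKM (-3.55, SE 0.32, adjusted p = 0.00885). All 9 tested central hepatocyte genes outside P450 read lower, with a median of -1.03. Of 12 periportal genes Sult5a1, a sulfotransferase, fell from 17.4 to 0.764 (-3.38, SE 0.16, adjusted p = 7.93e-04), and 9 read lower, with a median of -0.81. The 15 hepatocyte markers had a median of 0.18, with 0 called by limma and 5 at an unadjusted p under 0.05. Of the 15 tested genes of other microsomal oxidation enzymes, such as carboxylesterases and epoxide hydrolases, limma called 0, with 9 at an unadjusted p under 0.05 and a median of -1.29. Both tested Ah receptor targets outside P450 had BDL libraries that all lay above Sham: Tiparp (2.07, SE 0.43, adjusted p = 0.0699) and Nqo1 (0.77, SE 0.24, adjusted p = 0.127). Of 20 acute phase genes 3 were called, all higher: Lcn2, an iron-binding defence protein (5.40, SE 0.79, adjusted p = 0.0358), Cp, the plasma copper oxidase (2.60, SE 0.44, adjusted p = 0.0466), and Steap4, a metal reductase (2.78, SE 0.26, adjusted p = 0.0105).

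In BECs after ligation, P450 transcripts were lower. Over the 75 genes the sum was 706 ± 282 FPKM in BECs Sham and 230 ± 48.4 in BECs BDL (SD, n = 3). Of the 38 genes tested, 12 were called lower and 1 higher, which is 34.2%, against 7.66% of all genes (4.7% lower and 2.96% higher). An unadjusted p under 0.05 was found for 29, against 26% of all genes. All BDL libraries lay below Sham in 25 genes (65.8%, against 18.8% of all genes) and above in 2 (against 13%). Of the 25, Cyp2c23, Cyp2c67, Cyp2d40, Cyp4a10, Cyp4f15 and Cyp4f40 passed the filter through their Sham libraries alone. The places of these genes in the count follow from the filter. The median difference was -1.77, against -0.03 over all genes. The 15 hepatocyte markers had a median of -2.07 with 3 called lower, and summed to 4301, 2377 and 5163 FPKM in Sham and 1453, 1161 and 352 in BDL. With the mean of these markers as a covariate, Cyp2s1 was called, lower, and 0 of the 13. This mean of log2(FPKM + 1) was 7.03, 5.94 and 6.85 in Sham and 5.39, 4.90 and 3.25 in BDL. The groups do not overlap in it, so this fit cannot separate the markers from ligation. Without BECs Sham 1 none was called, and with sex as a covariate 6 were.

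The 12 lower genes include Cyp1a1, which MPH hardly held. Cyp1a1 fell from 26.3, 18.7 and 19.7 FPKM in Sham to 3.37, 5.23 and 6.46 in BDL (-1.93, SE 0.23, adjusted p = 0.0113). MPH libraries read at most 0.426 FPKM of it, and with the hepatocyte markers as a covariate the difference was -2.29 with an adjusted p of 0.0594. Without BECs Sham 1 it was -1.78 (adjusted p = 0.0506). Its groups did not overlap, and neither did those of Cyp1b1, which read 7.98, 8.67 and 8.65 in Sham and 14.7, 9.08 and 14.9 in BDL, in the other direction (0.53, SE 0.20, adjusted p = 0.147). Cyp2s1 read 20.5, 25.0 and 11.8 in Sham and 3.56, 4.12 and 15.0 in BDL (-1.42, SE 0.53, adjusted p = 0.157), with BECs BDL 3 inside the Sham range, and Cyp2c65 6.40, 10.3 and 3.15 in Sham and 0.425, 2.53 and 4.54 in BDL (-1.21, SE 0.58, adjusted p = 0.245).

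Among the called genes, Cyp4f14, Cyp3a13, Cyp4b1 and Cyp1a2 stood in BECs Sham at 24.3%, 31.9%, 37.0% and 18.0% of their MPH Sham level. Cyp4f14, a leukotriene and fatty acid hydroxylase, fell from 41.0, 27.8 and 40.2 FPKM to 2.47, 6.93 and 4.91 (-2.75, SE 0.32, adjusted p = 0.0113), the smallest adjusted p of the 13. Cyp3a13 fell from 18.3, 21.8 and 8.53 to 3.07, 3.45 and 6.07 (-1.68, SE 0.37, adjusted p = 0.0447). Cyp4b1 fell from 21.7, 22.0 and 17.5 to 6.80, 4.81 and 12.1 (-1.34, SE 0.29, adjusted p = 0.0420), beside endothelial markers of which 8 of 11 were called lower and which summed to 193, 225 and 259 in Sham and 105, 88.5 and 126 in BDL. Cyp1a2 fell from 45.8, 7.23 and 21.9 to 1.19, 0.218 and 0.169 (-3.82, SE 0.63, adjusted p = 0.0253). All groups were apart. With the hepatocyte markers as a covariate the differences of these 4 genes were -2.85, -2.58, -2.13 and -2.35, with adjusted p of 0.0816, 0.0774, 0.0614 and 0.291. The marker mean did not overlap between the groups, so this fit cannot separate the markers from ligation. The part of hepatocyte and endothelial RNA in these falls was not tested.

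A further 7 genes that fell stood in BECs Sham at lower shares of the MPH level, from 4.24% for Cyp2d10 to 9.50% for Cyp4f15. Cyp2c68 fell from 15.7, 8.13 and 12.7 FPKM to 1.68, 1.27 and 0.338 (-2.67, SE 0.32, adjusted p = 0.0124), Cyp2c37 from a mean of 12.8 to 0.528 (-2.99, SE 0.66, adjusted p = 0.0477) and Cyp2c23 from 5.33 to 0.385 (-2.04, SE 0.43, adjusted p = 0.0414). Cyp2d10 fell from 35.9, 12.4 and 18.1 to 4.44, 1.96 and 1.15 (-2.70, SE 0.47, adjusted p = 0.0276) and Cyp2d40 from 2.43 to 0.0706 (-1.56, SE 0.35, adjusted p = 0.0453). Cyp2j5 fell from 26.1, 16.1 and 20.1 to 7.31, 11.0 and 7.01 (-1.21, SE 0.23, adjusted p = 0.0302), and Cyp4f15 from 4.27 to 0.795 (-1.53, SE 0.19, adjusted p = 0.0125). Each of these 7 genes was called higher in MPH Sham than in BECs Sham. Cyp2d40, Cyp2c23 and Cyp4f15 passed the filter through their BECs Sham libraries alone, so that their groups lay apart follows from the filter. Cyp2e1 read 302, 77.7 and 141 in Sham and 36.8, 11.4 and 35.6 in BDL (-2.54, SE 0.63, adjusted p = 0.0612), Cyp3a11 51.9, 14.6 and 38.4 in Sham and 15.6, 3.30 and 0.792 in BDL (-2.66, SE 0.87, adjusted p = 0.121), and Cyp2c70 22.5, 6.34 and 8.11 in Sham and 4.49, 1.52 and 0.417 in BDL (-2.11, SE 0.62, adjusted p = 0.0924), none of them called.

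Cyp4f18 was the 1 P450 gene called higher in BECs after ligation. It rose (chr8:71988482-72009626, GRCm38) from 4.78, 4.39 and 9.73 FPKM in Sham to 30.5, 39.2 and 24.5 in BDL (2.20, SE 0.30, adjusted p = 0.0148), and every BDL library lay above every Sham library. Neutrophil markers moved with it: 5 of 8 tested of a list of 9 were called higher, and the list summed to 38.6, 38.3 and 134 FPKM in Sham and 318, 398 and 473 in BDL. Ly6g was at 0 in 1 of the Sham libraries and at or under 1.105 in all BECs libraries. BECs BDL 3 had the lowest Cyp4f18 of the BDL libraries and the highest neutrophil sum. Of 8 monocyte markers, 2 were called higher, and they summed to 246, 201 and 375 in Sham and 1028, 743 and 541 in BDL. The part of neutrophil and monocyte RNA in the rise of Cyp4f18 was not tested.

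Some P450 genes stood out in a single BECs library. BECs BDL 3 read 36.5 FPKM of Cyp2f2, 16.8 of Cyp2a5 and 8.21 of Cyp4f39, where BECs BDL 1 and 2 read 0.404 and 0.595, 1.58 and 0.291, and 0.0683 and 0.0343. In the same library the hepatocyte markers summed to 352 FPKM, the lowest of all 18 libraries, and Alb read 69.0. These 3 genes were chosen after their values were seen.

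Among the genes around the P450 enzymes in BECs, Pgrmc1, a haem-binding partner of P450 enzymes, was the 1 called of 15 redox and haem genes (-0.91, SE 0.16, adjusted p = 0.0266), and Por read 41.6, 52.5 and 39.6 FPKM in Sham and 43.3, 41.2 and 54.4 in BDL. Of 15 tested transcription factors 3 fell: Rxra, the partner of CAR, PXR and PPAR alpha (-0.82, SE 0.14, adjusted p = 0.0234), Nr0b2, the bile acid responsive repressor SHP (-1.81, SE 0.26, adjusted p = 0.0161), and Foxa2 (-0.71, SE 0.16, adjusted p = 0.0413). Of 12 tested carboxylesterases and other microsomal enzymes 7 fell, among them Ces1d (-3.15, SE 0.42, adjusted p = 0.0146), Ces1c (-3.89, SE 0.55, adjusted p = 0.0175), Ephx1 (-0.89, SE 0.16, adjusted p = 0.0251) and Ephx2 (-1.17, SE 0.21, adjusted p = 0.0255). All 12 read lower. Of the 2 tested Ah receptor targets outside P450 limma called 0, with 0 at an unadjusted p under 0.05. Tiparp stood at 34.4, 37.7 and 25.0 in Sham and 54.1, 33.6 and 45.4 in BDL, beside the fall of Cyp1a1, and Ahr at 15.0, 18.5 and 10.1 in Sham and 40.0, 18.6 and 16.0 in BDL.

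**Figure D4:**
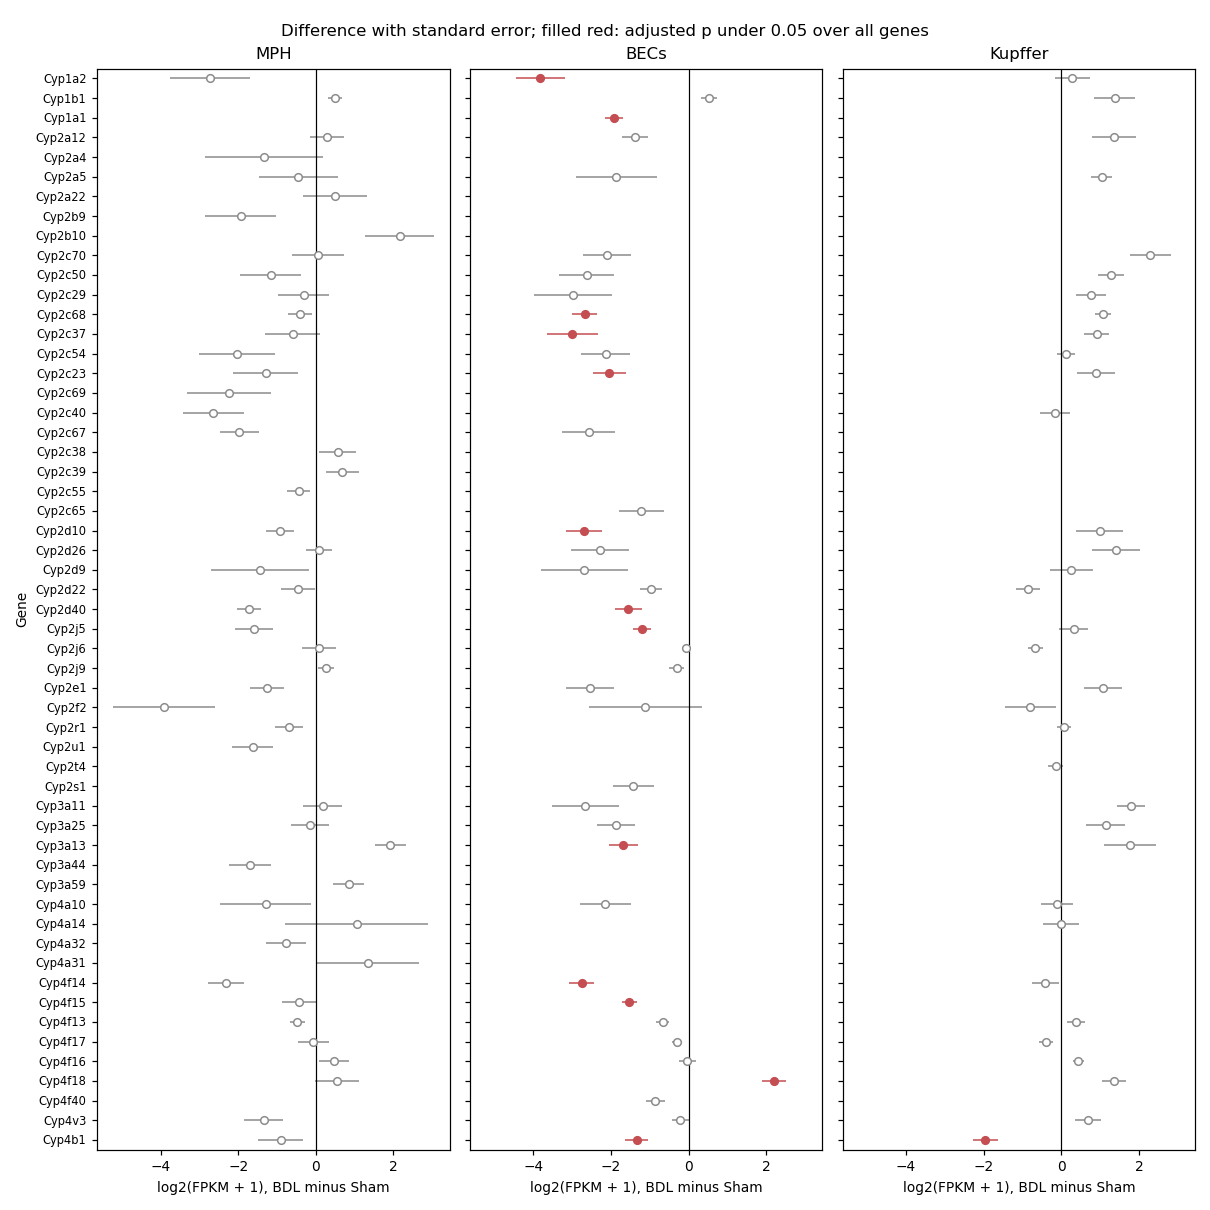
Difference BDL minus Sham in log2(FPKM + 1) with its standard error for every P450 gene tested in MPH, BECs or Kupffer, filled red where the adjusted p over all genes was under 0.05. No gene is filled in MPH, 13 are in BECs, of which Cyp4f18 is the only one to the right of 0, and Cyp4b1 is in Kupffer.

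In Kupffer after ligation, the sum over the 75 genes was 299 ± 27.4 FPKM in Sham and 326 ± 68.4 in BDL (SD, n = 3). As a percent of the summed FPKM of all genes it ran from 0.0998 to 0.1159 in Sham and from 0.06935 to 0.1175 in BDL. Of the 34 genes tested, 1 was called, Cyp4b1, lower (2.94%, against 3.88% of all genes, 2.4% lower), and 13 had an unadjusted p under 0.05 (38.2%, against 24.1%). In 9 genes all BDL libraries lay above Sham (26.5%, against 16.7% of all genes) and in 4 below (11.8%, against 15.6%). Of these, Cyp3a13 passed the filter through its BDL libraries alone and Cyp4f17 through its Sham libraries alone. The places of these genes in the counts follow from the filter. The median difference was 0.56, against 0.03 over all genes. When libraries were scaled to a common sum the median difference of the P450 genes was 0.15, and the median of all genes shifted by -0.27.

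Cyp4b1 fell from 163, 173 and 154 FPKM in Kupffer Sham to 63.2, 43.9 and 25.4 in BDL (-1.95, SE 0.33, adjusted p = 0.0419). Every BDL library lay below every Sham library, at 63.2 or less against 154 or more. Endothelial markers were lower beside it: 4 of 11 were called lower (Dnase1l3, Gpr182, Stab2 and Kdr), none was at 0, and the list summed to 1770, 2141 and 2138 in Sham and 1361, 506 and 554 in BDL. Their part in the fall was not tested. The call was lost without any 1 Sham library or without Kupffer BDL 2 (adjusted p of 0.109 to 0.200), with hepatocyte markers as a covariate (-1.65, adjusted p = 0.862) and with sex as a covariate (adjusted p = 0.0679). It was kept without Kupffer BDL 1 (-2.25) or Kupffer BDL 3 (-1.61). The hepatocyte marker mean was 5.32, 4.81 and 4.12 in Kupffer Sham and 5.725, 7.46 and 6.57 in Kupffer BDL. The groups do not overlap in it, so that covariate cannot be separated from ligation.

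Of the 34 P450 genes tested in Kupffer, 25 had a difference above 0, none of them called, and 9 one below 0, among them Cyp2d22 at -0.86, Cyp2f2 at -0.80, Cyp2j6 at -0.66 and Cyp4f14 at -0.41. Several abundant hepatocyte genes were on the higher side, at low levels. Cyp3a11 read 4.17, 5.21 and 3.84 FPKM in Sham and 9.87, 27.1 and 20.4 in BDL (1.798, SE 0.35, adjusted p = 0.0507), and Cyp2c70 6.04, 3.03 and 1.72 in Sham and 13.5, 41.3 and 14.0 in BDL (2.30, SE 0.53, adjusted p = 0.0670). Cyp2e1 read 22.4, 18.8 and 11.4 in Sham and 18.6, 38.4 and 67.5 in BDL (1.07, SE 0.49, adjusted p = 0.243), and Cyp1a2 1.33, 2.73 and 1.18 in Sham and 1.25, 1.37 and 5.47 in BDL (0.29, SE 0.46, adjusted p = 0.740). Cyp3a11 and Cyp2c70 were apart between the groups, and Cyp2e1 and Cyp1a2 overlapped. The 15 hepatocyte markers summed to 1326, 903 and 593 FPKM in Sham and 1785, 6368 and 3500 in BDL, all 15 read higher, and their median difference was 1.73, with 0 called by limma and 11 at an unadjusted p under 0.05. As a share of the MPH level of the same treatment, the 39 P450 genes had a median of 1.07% in Kupffer Sham and 4.29% in Kupffer BDL, and the markers 1.02% and 4.17%. In BECs the medians went from 5.59% to 1.06% for the P450 genes and from 3.61% to 0.636% for the markers.

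Cyp4f18 read higher in Kupffer BDL too, without a call, with 15.3, 14.9 and 18.6 FPKM in Sham and 39.7, 29.9 and 68.4 in BDL (1.37, SE 0.31, adjusted p = 0.0641). The groups did not overlap. Neutrophil markers summed to 334, 329 and 365 in Sham and 916, 877 and 2442 in BDL, with 3 of 8 tested called higher and none at 0, and Kupffer BDL 3 was highest for both. Their part in the level of Cyp4f18 was not tested. In that library Clec4f read 295 FPKM, against 1213 to 1812 in the other Kupffer libraries. Without it 7 P450 genes were called: Cyp4b1 and Cyp4f14 lower, and Cyp3a11, Cyp2c70, Cyp2c68, Cyp4v3 and Cyp4f18 higher. Without Kupffer BDL 1 there were 5, Cyp4b1 and Cyp2d22 lower and Cyp3a11, Cyp3a25 and Cyp2c68 higher. The shares of all genes called in these fits are not given here, so the counts have no background beside them.

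Of the listed companion genes, limma called 0 of 15 for redox partners and haem synthesis in Kupffer (4 at an unadjusted p under 0.05) and 0 of 13 transcription factors (4 at an unadjusted p under 0.05). Por read 13.7, 17.6 and 18.2 FPKM in Sham and 36.9, 32.7 and 23.2 in BDL, and the groups did not overlap. Of 9 tested central hepatocyte genes 1 fell, Slc1a2, a glutamate carrier (-0.98, SE 0.17, adjusted p = 0.0410), and of 20 acute phase genes 8 rose.

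**Figure D5:**
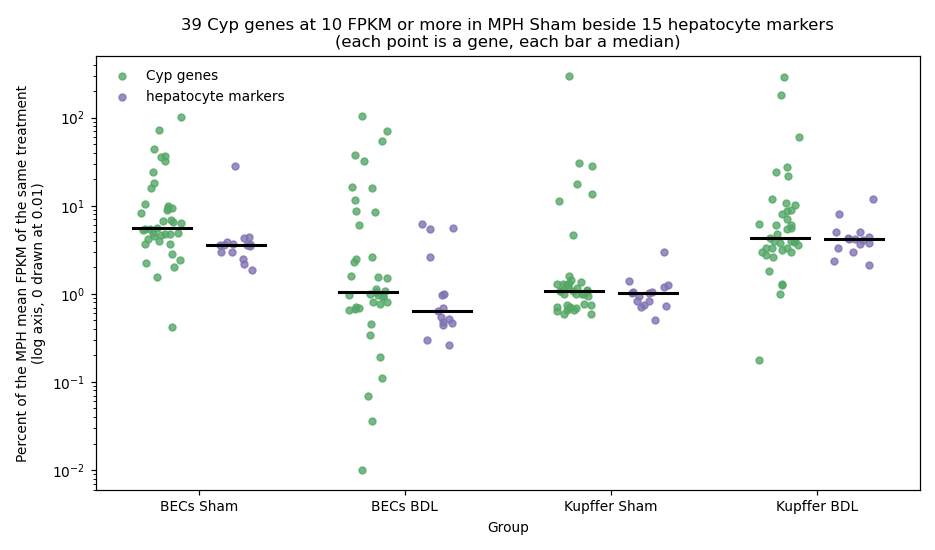
Mean FPKM in BECs or Kupffer as a percent of the MPH mean of the same treatment (log axis), for 39 P450 genes and 15 hepatocyte markers, with a point for each gene and a bar for each median. The medians of both sets are lower in BECs BDL than in BECs Sham and higher in Kupffer BDL than in Kupffer Sham, at 1.06% and 0.636% in BECs BDL and 4.29% and 4.17% in Kupffer BDL.

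The difference of the response to ligation between cell types was tested directly, as MPH minus BECs and MPH minus Kupffer. These 2 tests share the MPH libraries. Between MPH and BECs, 3 of 55 P450 genes were called (5.455%, against 1.6% of all genes), and 14 had an unadjusted p under 0.05 (25.5%, against 17.8%). Cyp3a13 was higher after ligation in MPH, where its own test missed the threshold, and lower in BECs, and its responses differed by 3.59 (SE 0.58, adjusted p = 0.0189). Cyp2c68 differed by 2.27 (SE 0.46, adjusted p = 0.0394): it read 119, 229 and 219 in MPH Sham and 142, 135 and 135 in MPH BDL, and fell in BECs. Cyp1a1 was called with 1.801 (SE 0.30, adjusted p = 0.0189), but it passed the filter through BECs alone and read at most 0.426 FPKM in MPH, too low to measure a response there, so that this value repeats its fall in BECs. Without BECs Sham 1 none was called. Cyp3a13 was also lost without MPH BDL 2, BECs Sham 2 or BECs BDL 1, Cyp1a1 without MPH Sham 1, and Cyp2c68 without any 1 library other than MPH Sham 2.

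Between MPH and Kupffer, 0 of 51 genes were called by limma, against 0.404% of all genes, and 17 had an unadjusted p under 0.05 (33.3%, against 19% of all genes). The median difference was -1.19, against -0.03 over all genes, and 38 of the 51 were below 0, against 52.4% of all genes. Blocked on the number that titles share, which pairs 3 MPH with 3 Kupffer libraries, 2 were called, Cyp2d40 (-2.02, SE 0.44, adjusted p = 0.0376) and Cyp2c68 (-1.48, SE 0.32, adjusted p = 0.0384). By their means both read lower in MPH BDL than in MPH Sham and higher in Kupffer BDL than in Kupffer Sham, where Cyp2d40 was at 0.289 and 0.861 FPKM.

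Several P450 genes of mouse liver differ by sex, and the libraries differed in their Y-linked reads, so these genes are given by library. MPH Sham 2 and MPH BDL 3 had no reads of the 4 Y-linked genes. The 8 genes listed as female-biased summed to 84.0, 1024 and 82.0 FPKM in MPH Sham 1, 2 and 3 and 37.3, 41.4 and 155 in MPH BDL 1, 2 and 3, the highest in each group being the library without Y-linked reads. Cyp2b13 read 80.0 in MPH Sham 2 and at most 0.481 in the other 5 MPH libraries. In MPH BDL 3 the sum was carried by Cyp2a4 alone, at 126, while Cyp2b9, Cyp2b13, Cyp2c40 and Cyp2c69 read 12.7, 0.0994, 6.68 and 5.05. The male-biased Cyp2d9 read 104, 11.4 and 396 in MPH Sham and 41.3, 55.2 and 9.96 in MPH BDL, lowest in each group in the library without Y-linked reads.

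In Sham, the same genes followed the Y-linked reads in the other preparations. In BECs Sham 3, without Y-linked reads, Cyp2c69 read 18.1, Cyp2a4 11.7 and Cyp2b9 4.38 FPKM, against at most 2.13, 0 and 0 in BECs Sham 1 and 2. Cyp2d9 read 37.3, 12.9 and 0.630 in BECs Sham 1, 2 and 3, and 2.80, 0.0964 and 0.0930 in Kupffer Sham 1, 2 and 3, where Kupffer Sham 1 alone had Y-linked reads. After ligation it did not follow them in Kupffer, with 1.16, 1.72 and 0.322 in Kupffer BDL 1, 2 and 3, of which the first alone had Y-linked reads. With 1 library of a kind in each MPH group these differences have no replicate and were not tested. With sex as a covariate in MPH, limma called 0 P450 genes, and the adjusted p of Cyp2d40, Cyp4f14 and Cyp3a13 were 0.0665, 0.0721 and 0.0909. Their differences stayed at -1.73, -2.31 and 1.91 by design, since libraries with and without Y-linked reads were balanced between the MPH groups. Only the SE could change. In the 4 MPH libraries with Y-linked reads 0 were called.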

How the data were processed

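The deposited values are FPKM per gene in 18 libraries. Per the labels' protocols, total RNA was taken with TRIzol and libraries were made from polyadenylated RNA with the VAHTS Universal V6 kit. The submitters' processing notes name CASAVA 1.8, fastp, HISAT2 2.0.5, featureCounts 1.5.0-p3 and DESeq2 1.20.0, and the builds GRCm38 and mm10. The annotation release and strandedness were not stated there. The samples of stellate cells that the design text names were not analysed here. Multiplying the deposited FPKM by the exon length of each gene (GENCODE M21) gave whole reads within 0.02 for 97.35 to 98.36% of values under 200 reads. By the same step the scale of the FPKM corresponded to 0.5165 to 0.7412 of the recovered reads in MPH and to 0.9343 to 1.2217 in the other libraries, so scalings to a common sum and to recovered reads were run as alternatives. Depth was 15451737 to 20578962 reads in genes per library.

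Differences were tested with limma 3.58.1 (statmod 1.5.0, R 4.3.3; moderated, with trend and robust, 2-sided) on log2(FPKM + 1), over genes at 1 FPKM or more in at least 3 libraries of the comparison, with Benjamini-Hochberg adjustment over all genes and a threshold of 0.05. The offset of 1 understates changes of low genes. No count test was run, since the table holds no counts. Each comparison was fitted on its own groups, and Sham cell types were fitted together. Groups come from the labels. Where title numbers are shared, MPH and Kupffer libraries of one number deviated together (correlations of 0.236, 0.346 and 0.319 over 12430 genes, against -0.329 to 0.232 for other pairs), so the number was used as a block in an alternative fit. Further alternatives were another offset (0.1), no filter or one of 5 FPKM, no trend and robust steps, all libraries in 1 model, each library left out, and hepatocyte markers or sex as a covariate. Fits on libraries with, or without, Y-linked reads were added after seeing the data. The tests were checked on simulated data.

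The members and lists were chosen with earlier results of these data known. Named genes are Cyp2e1, Cyp3a11, Cyp1a2 and Cyp2c70, genes called after ligation or for a different response, in MPH the 10 largest falls and rises without overlap, the most abundant gene of each subfamily group in MPH Sham, those at least 2 times higher outside MPH, up to 4 called genes per companion list, and in MPH Por, Ahr, Nr1i2, Nr1i3, Ppara, Hnf4a, Cebpa, Hmox1 and Alas1. Other genes were named after their values were seen, such as Cyp2b10, Cyp2d26, Cyp4a14, Cyp4a31, Cyp4f13, Cyp2j6, Cyp2d22, Cyp2a4, Cyp2b13 and Cyp2d9. Of the 16 listed hepatocyte markers 15 were matched. The result of 1 companion gene is not reported here. Shared sequence was measured as the percent of 75-base windows of a gene's exons that occur in another gene.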

Additional observations from a re-analysis of the deposited data

Results flagged for a closer look

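For 3 P450 genes the test of the difference between the MPH and BECs responses to ligation, BDL minus Sham, passed the threshold in limma, and for 1 of them, Cyp1a1, the value repeats the fall in BECs, since no response could be measured in MPH. For Cyp3a13 the MPH response exceeded the BECs response by 3.592 on the log2(FPKM + 1) scale, with 3 of 3 MPH BDL libraries above all MPH Sham libraries and 3 of 3 BECs BDL libraries below all BECs Sham libraries. For Cyp2c68 the excess was 2.266, with overlapping groups in MPH and 3 of 3 BECs BDL libraries below Sham. For Cyp1a1 it was 1.801, with 3 of 3 BECs BDL libraries below Sham and at most 0.426 FPKM in any MPH library. Hepatocyte markers were also lower in BECs BDL (median difference -2.07), and their part in these differences was not tested.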

How the results depend on the processing

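For BDL against Sham in MPH, the count of P450 genes called went from 0 to 1 with a common sum or recovered reads as the scale (Cyp3a13), to 1 without the trend and robust steps (Cyp2d40) and to 11 with all 18 libraries in 1 model, and was 0 without any 1 library. In BECs the 13 called became 1 without a filter (Cyp4f14), 1 with hepatocyte markers as a covariate (Cyp2s1), 6 with sex as a covariate, and 0 to 15 when 1 library was left out, with 0 without BECs Sham 1, 8 without BECs Sham 2, 6 without BECs Sham 3, 8 without BECs BDL 1 and 7 without BECs BDL 2. In Kupffer the 1 called became 0 without a filter, with either covariate or in libraries without Y-linked reads only, 2 with a filter of 5 FPKM or a common sum, 3 without the trend and robust steps, 4 with all 18 libraries in 1 model, and 0 to 7 when 1 library was left out. For the response in MPH against BECs, the 3 called became 1 with an offset of 0.1, 0 without a filter, and 0 to 3 when 1 library was left out. For MPH against Kupffer, the 0 called became 2 with the title number as a replicate block, which pairs MPH and Kupffer libraries. The block changed the Sham count of MPH against Kupffer from 45 to 46, and no call of a gene named there, and it could not be used for BDL against Sham, which share no number. In the 3 comparisons of Sham cell types the counts of 43, 45 and 29 stayed within 1.5 times under every alternative run, with 35 to 44, 43 to 45 and 20 to 33 when 1 library was left out. No alternative turned the direction of a P450 gene called for BDL against Sham or for a difference in response. In Kupffer the sex covariate could not, since libraries with and without Y-linked reads were balanced between the groups. Among genes not called after ligation, the sign changed under at least 1 alternative for 12 of 50 in MPH, 5 of 25 in BECs and 17 of 33 in Kupffer. Without MPH Sham 1, Cyp2c70 and Cyp3a11 in MPH stood at -0.35 and -0.28. Where the filter changes, so does the number of genes tested. The hepatocyte marker covariate did not overlap between Sham and BDL in BECs or in Kupffer, so it cannot be separated from ligation. The shares of all genes called under the alternatives are not given here, so these counts have no background beside them. The cause of the other shifts was not tested. The depth leaves genes under 1 FPKM, such as Cyp2c65 in MPH, without a measurable difference.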
